A study of Mus musculus with 30 samples.

Results

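The hippocampus of COX-2+/- (HET) mice was compared with the cerebral cortex of COX-2+/- mice, 3 arrays against 3, which are the 6 arrays of 30 whose labels name a heterozygous COX-2 genotype. The animals were 12 weeks old, with no treatment named, carried 1 disrupted copy of the COX-2 gene, and were kept on a light and dark cycle with free food. The same regions of COX-2-/- (KO) and COX-2+/+ (WT) mice, also 12 weeks old and with 3 arrays each, were used to set the heterozygous difference against. A separate COX-1 line was left aside. The null and wild-type mice had a mixed genetic background. Each line was kept up by mating heterozygotes, and the methods do not describe a heterozygous group for the arrays. Each region was dissected whole, so fewer cells of a type and less RNA per cell cannot be told apart. Whether the 3 arrays of a group stand for 3 mice or for repeat hybridisations is not settled by the sources, and p-values here cover only the variation between arrays.

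COX-2 is the inducible cyclooxygenase that turns arachidonic acid into prostaglandin H2, the precursor of the prostaglandins and of thromboxane. In the brain it is made at rest by excitatory neurons of the cortex and hippocampus, and its level follows synaptic activity. The hippocampus holds the granule cells of the dentate gyrus and the pyramidal cells of the CA fields in single packed layers, whereas the cortex stacks several layers of projection neurons, so the 2 tissues share most cell classes but not their proportions.

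Values are the authors' Z scores, the natural log intensity of a probe less the mean of the array and divided by its SD, and differences in Z must not be read as fold changes. Of 16896 cDNA probes, 8008 had a mean Z above 0 over the 6 heterozygous arrays and were tested, and 4528 of these carry 1 gene symbol. Over the tested probes, arrays correlated with r from 0.992 to 0.994 within COX-2+/- hippocampus, from 0.989 to 0.992 within COX-2+/- cortex and from 0.973 to 0.981 between them. The COX-2+/- hippocampus lay about as close to the cortex as to the hippocampus of the other genotypes. Its median r was 0.985 with COX-2+/+ hippocampus, 0.986 with COX-2+/+ cortex, 0.982 with COX-2-/- hippocampus and 0.982 with COX-2-/- cortex. The ranges overlapped, from 0.98 to 0.986 with COX-2+/+ hippocampus and from 0.98 to 0.988 with COX-2+/+ cortex. This was not particular to COX-2+/- mice. The COX-2+/+ hippocampus had a median r of 0.988 with COX-2-/- cortex and of 0.984 with COX-2-/- hippocampus. Ttr, the thyroid hormone carrier made by the choroid plexus, stood at 0.833, 1.90 and 0.246 in COX-2+/- hippocampus, against 0.3, 0.186 and 1.59 in COX-2+/- cortex. One cortex array thus exceeded 2 of the 3 hippocampus arrays, and the mean difference of 0.303 (SE 0.536, adjusted p = 0.751 by limma) did not pass. Its part in the results below was not tested, and the counts without that array, cortex replicate 3, stand beside the first counts.

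The region difference also moved with the position of a probe in the table. Along the first 8448 rows, a median over 201 neighbouring probes ran between -0.178 and 0.106 in COX-2+/- mice, in waves about 500 rows apart, and along the other 8448 rows between -0.0922 and 0.076. Over 169 overlapping windows of the first part, the waves of COX-2+/- mice correlated with those of COX-2-/- mice at r = -0.692 and with those of COX-2+/+ mice at r = 0.409. Among the first and last 800 rows of each part, 10 of 1136 tested probes were called higher in COX-2+/- hippocampus (0.88%) and 193 lower (17.0%), against 544 (7.92%) and 316 (4.6%) of 6872 elsewhere. What the row order stands for on the membrane is not given in the sources used here, and its part in each call was tested only by subtracting the running median.

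**Figure D1:**
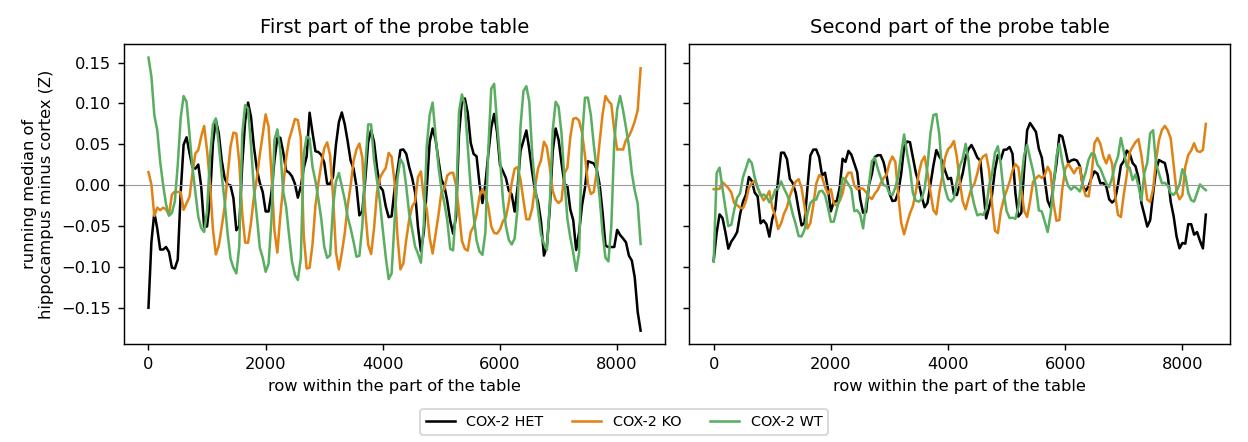
Running median of the hippocampus minus cortex difference in Z (y axis, 201 neighbouring probes) against the row of the probe (x axis) in the first and second part of the table, for COX-2+/- (black), COX-2-/- (orange) and COX-2+/+ (green) mice. The COX-2+/- line swings repeatedly about 0 and drops to -0.178 at the end of the first part.

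In the COX-2+/- mice, 1063 of 8008 probes differed between hippocampus and cortex (13.3%, limma with Benjamini-Hochberg adjustment, adjusted p under 0.05). Of these, 554 were higher in hippocampus (6.92% of those tested, 294 named genes) and 509 were lower (6.36%, 273 named genes). Among the higher ones was Mtor, the kinase that couples nutrients to growth, and among the lower ones was Tmod3, which caps the slow end of actin filaments. The median called difference was 0.214 in Z for the higher and -0.218 for the lower probes. In 553 of the 554 and 506 of the 509 the arrays of the regions did not overlap, while 41.2% of all tested probes had no overlap. After the running median was subtracted 707 probes were higher and 610 lower, and 848 of the 1063 calls were kept in the same direction. Leaving out the first and last 800 rows gave 526 higher and 311 lower probes. With hippocampus replicate 1, 2 or 3 left out there were 324, 252 or 274 higher and 316, 316 or 291 lower probes, and with cortex replicate 2 or 3 left out there were 372 or 252 higher and 324 or 259 lower. A rule of z ratio beyond 1.5, with the ratio taken as the difference over the SD of all differences (0.148), was passed by 541 probes (6.76%), 275 higher and 266 lower, and 501 of them also passed limma. With the ratio taken over the SD of an array, which is 1 and is how the methods word it, 0 probes passed.

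Gcnt3, a glycosyltransferase that branches mucin-type sugar chains, had the largest rise among named genes. It stood at 1.0, 1.01 and 1.08 in COX-2+/- hippocampus, against 0.369, 0.373 and 0.353 in COX-2+/- cortex. The 3 hippocampus arrays lay close together and far above the cortex arrays, with a difference of 0.664 (SE 0.118, adjusted p = 0.00216). Dbpht2 stood at 1.22, 1.25 and 1.35 in COX-2+/- hippocampus, against 0.647, 0.626 and 0.563 in COX-2+/- cortex. Usp29, a ubiquitin-specific protease, stood at 1.36, 1.29 and 1.51 in COX-2+/- hippocampus, against 0.729, 0.857 and 0.676 in COX-2+/- cortex. Neither gene overlapped between the regions, and they rose by 0.662 and 0.633. Ppp4r2, a regulatory subunit of protein phosphatase 4, was at 0.503, 0.465 and 0.503 in COX-2+/- hippocampus and at -0.161, -0.0756 and -0.0955 in COX-2+/- cortex. The cortex arrays lay below the mean of the array, so Ppp4r2 passed the filter on mean Z only through its hippocampus arrays. The same held for 57 of the 554 higher probes in all, Ppp4r2, Prrg4 and Ywhab among them, and 41 of the 509 lower probes passed only through cortex, so a difference was built into these.

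The 15 named genes with the largest rise, from 0.472 to 0.664, held several signalling and membrane proteins. Kinases and phosphatases among them were Mtor, Wnk1 (0.473), which controls cation-chloride cotransport, Map4k5 (0.475), a kinase upstream of JNK, and Ctdspl (0.493), a small phosphatase of the RNA polymerase tail family. Prrg4 (0.581), Praf2 (0.515) and Plxdc2 (0.506) are membrane proteins, and Snf8 (0.517) is a subunit of the ESCRT-II sorting complex. Mrpl23 (0.538) belongs to the mitochondrial ribosome and Atp5mpl (0.513) is a small subunit of the ATP synthase. Caskin2, a scaffold with ankyrin repeats, rose by 0.532. A brighter Map4k5 probe had the opposite sign (-0.137, adjusted p = 0.172 by limma), and another tested Ppp4r2 probe differed by 0.072 (adjusted p = 0.432). None of the 15 lies in the first or last 800 rows of a part, and 13 of them were called whichever of the 6 arrays was left out. Ctdspl lost its call without cortex replicate 3, and Plxdc2 without hippocampus replicate 2 or 3 or cortex replicate 2 or 3.

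Mtor had the smallest p of the named genes that rose. It stood at 0.523, 0.535 and 0.485 in COX-2+/- hippocampus, against 0.109, 0.0611 and -0.0431 in COX-2+/- cortex, a difference of 0.472 (SE 0.0570, adjusted p = 0.00024). The highest cortex array lay well under the lowest hippocampus array. Psmc1, an ATPase of the proteasome base, stood at 1.06, 0.983 and 1.01 in COX-2+/- hippocampus, against 0.558, 0.575 and 0.606 in COX-2+/- cortex. It rose by 0.441 (SE 0.0563, adjusted p = 0.00024), and another Psmc1 probe rose by 0.359 (adjusted p = 0.00122). Ctnnd1, a catenin that steadies cadherins at the membrane, rose by 0.441 (adjusted p = 0.000462), while another tested probe of it differed by 0.050 and did not pass (adjusted p = 0.625). H2-T10, a class Ib histocompatibility gene, rose by 0.286 (SE 0.0386, adjusted p = 0.000289).

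**Figure D2:**
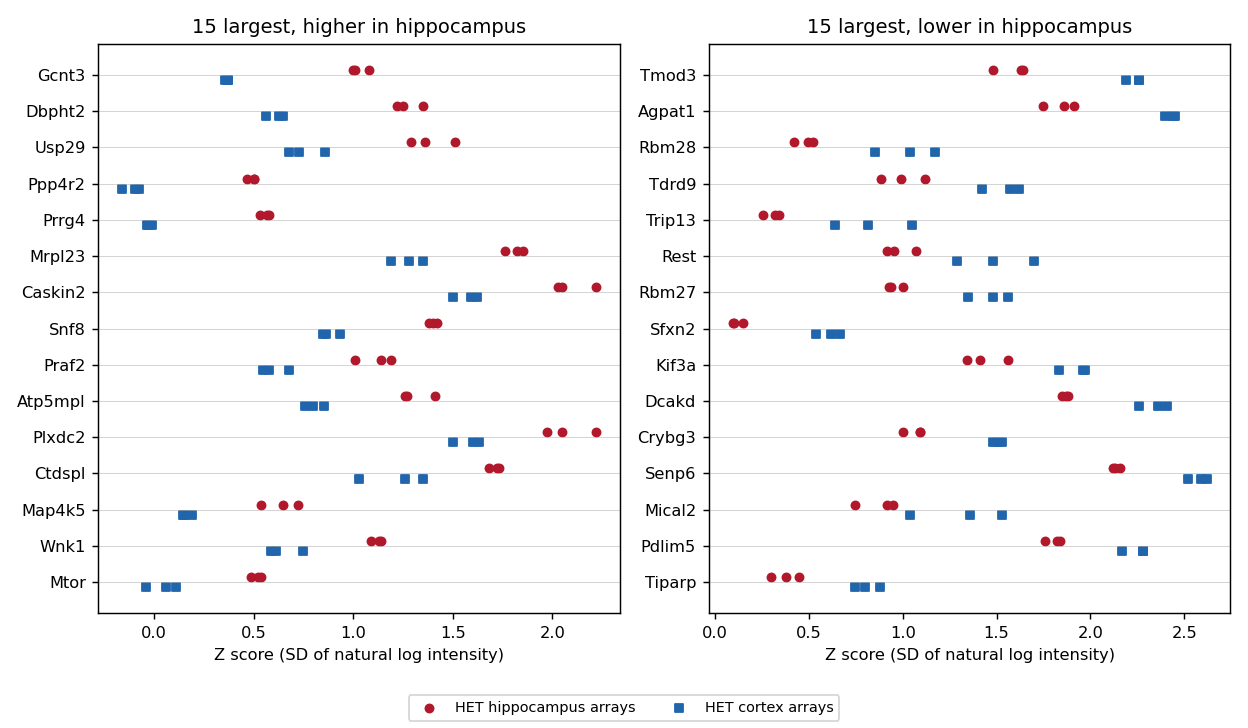
Z score (x axis, SD of natural log intensity) on each COX-2+/- array for the 15 named genes with the largest rise (left) and the 15 with the largest fall (right) in hippocampus, with hippocampus arrays as red circles and cortex arrays as blue squares. The 2 regions do not overlap in any of the 30 genes, which were chosen to have no overlap.

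Tmod3 had the largest fall of all probes tested. It stood at 1.64, 1.63 and 1.48 in COX-2+/- hippocampus, against 2.19, 2.26 and 2.26 in COX-2+/- cortex. Each hippocampus array lay far below each cortex array, and the gene fell by 0.652 (SE 0.0667, adjusted p = 0.000112). Agpat1, which makes phosphatidic acid from lysophosphatidic acid, stood at 1.75, 1.91 and 1.86 in COX-2+/- hippocampus, against 2.40, 2.45 and 2.44 in COX-2+/- cortex, and fell by 0.590 (SE 0.0788). Senp6, a protease that removes SUMO chains, stood at 2.12, 2.13 and 2.16 in COX-2+/- hippocampus, against 2.52, 2.59 and 2.62 in COX-2+/- cortex. Its arrays were tight in both regions, and it fell by 0.442 (SE 0.0481, adjusted p = 0.000124). Rest, the repressor of neuronal genes, stood at 0.916, 0.951 and 1.07 in COX-2+/- hippocampus, against 1.29, 1.48 and 1.70 in COX-2+/- cortex. The cortex arrays were spread more widely than the hippocampus arrays but stayed above them, and Rest fell by 0.511 (SE 0.0867, adjusted p = 0.00175).

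The 15 named genes with the largest fall ran from 0.435 to 0.652 in size. Actin-linked proteins among them were Tmod3, Mical2, which oxidises actin (a fall of 0.441), and Pdlim5, a PDZ and LIM scaffold (a fall of 0.438). RNA-binding proteins were Rbm28 (-0.541) and Rbm27 (-0.509), and Tdrd9 (-0.540) is a helicase known from germ-line piRNA silencing. Trip13 (-0.529) is an ATPase of the spindle checkpoint, Sfxn2 (-0.493) a mitochondrial carrier, Tiparp (-0.435) an ADP-ribosyltransferase and Kif3a (-0.484) a motor of cilia and axons. Dcakd (-0.478) and Crybg3 (-0.445) complete the group. Other tested probes of Pdlim5 (-0.055), Crybg3 (0.042), Tiparp (-0.081), Mical2 (-0.129) and Senp6 (-0.134 and -0.13) did not pass. Of the 15, 8 lie in the first or last 800 rows of a part, and Crybg3 lost its call when the running median was subtracted, while the other 14 kept theirs. Mical2 lost its call without hippocampus replicate 1 or cortex replicate 3. Slc34a2, a phosphate transporter, Ccdc50 and Eif4a1, a helicase of translation initiation, were lower by smaller differences (-0.432, -0.384 and -0.345) with adjusted p of 0.00024, 0.000124 and 0.000124. The 2 other tested Eif4a1 probes differed by 0.099 and 0.083 and did not pass.

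Probes of a gene did not always move together. Of 238 pairs of a called probe with another tested probe of its gene, 154 had the same sign (64.7%), and of 16 pairs in which both were called, 13 had the same sign. Clpp, the protease of the mitochondrial matrix, picked after its values were seen, fell by 0.297 and by 0.267 on its 2 probes (adjusted p = 0.00417 and 0.00222). A gene with 1 called probe is therefore described by that probe.

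The same contrast was then set beside that of the other genotypes, which share no arrays with it but share its SE at each probe. In COX-2-/- mice 35 of the same 8008 probes were called between the regions (0.437%) and in COX-2+/+ mice 364 were (4.55%). The number called rests on the size of the differences, on the adjustment, made within each contrast, and on the spread of the arrays. The limma model pools that spread over the genotypes. Each probe thus had the same SE in COX-2+/-, COX-2-/- and COX-2+/+ mice (0.118 for Gcnt3). Before adjustment, p by limma was under 0.05 at 2324 probes in COX-2+/-, 1311 in COX-2-/- and 1925 in COX-2+/+ mice. These counts lie closer together than the adjusted ones. The 8008 probes were filtered on the COX-2+/- arrays only. The SD of the differences over tested and untested probes was 0.148 in COX-2+/-, 0.114 in COX-2-/- and 0.119 in COX-2+/+ mice. Of the 1063 calls of COX-2+/- mice, 724 had the same sign in COX-2-/- mice (68.1%, against 53.7% of all tested probes) and 636 had it in COX-2+/+ mice (59.8%, against 56.6%). Called in both COX-2+/- and COX-2+/+ mice were 90 probes, 84 in the same direction, which are 8.47% of the first list and 24.7% of the second. Called in both COX-2+/- and COX-2-/- mice were 15, all in the same direction, which are 1.41% and 42.9%.

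The difference between the genotypes was tested in the same model. The region difference of COX-2+/- mice differed from that of COX-2+/+ mice at 343 of 8008 probes (4.28%), higher at 216 (2.7%) and lower at 127 (1.59%). At 312 of these the estimates of the 2 genotypes had opposite signs, whether or not either was called between the regions. The COX-2+/- region difference differed from that of COX-2-/- mice at 160 probes (2.0%), higher at 71 (0.887%) and lower at 89 (1.11%). At 133 of these the signs were opposite in the same sense. Opposite signs enlarge such a contrast, so they are favoured among its calls. Of probes called between the regions in both genotypes, 84 of 90 with COX-2+/+ and all 15 with COX-2-/- mice had the same direction. After the running median was subtracted the counts of 343 and 160 became 499 and 97. Leaving out 1 of the 6 COX-2+/- arrays gave 161 to 239 against COX-2+/+ and 18 to 142 against COX-2-/- mice. With hippocampus replicate 1, 2 or 3 left out there were 223, 208 or 161 and 55, 33 or 36, and with cortex replicate 2 or 3 left out 224 or 207 and 58 or 18. All 15 genes with the largest rise passed against COX-2+/+ mice, where 14 of them had a hippocampus mean below the cortex mean. None of those 14 differences was called in COX-2+/+ mice (smallest adjusted p = 0.0963 by limma, for Mtor). Against COX-2-/- mice 3 of the 15 passed, namely Usp29, Caskin2 and Map4k5. Of the 15 with the largest fall, 11 passed against COX-2+/+ and 8 against COX-2-/- mice. In each of the 15 that rose, the COX-2+/- hippocampus mean was above, and the COX-2+/- cortex mean below, the same region of both other genotypes. In the 15 that fell, the COX-2+/- hippocampus mean was below that of both other genotypes in all, and the COX-2+/- cortex mean was above COX-2+/+ cortex in 15 and above COX-2-/- cortex in 14. These genes were chosen for the size of their difference in COX-2+/- mice. A smaller or opposite difference elsewhere, and a pass against another genotype, thus follow in part from the choice. Ppp4r2 and Prrg4, among those that rose, also passed the filter on mean Z only through their COX-2+/- hippocampus arrays.

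**Figure D3:**
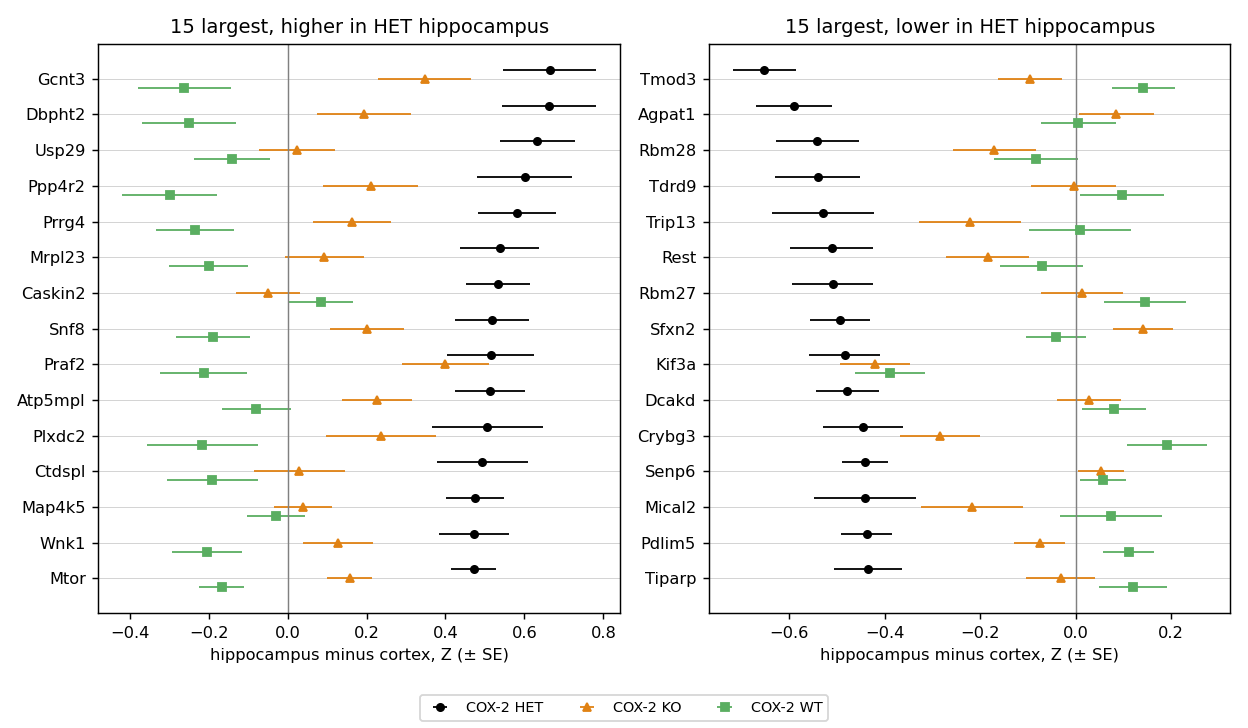
Hippocampus minus cortex difference in Z (x axis, points, with bars of ± 1 SE from limma) in COX-2+/- (black), COX-2-/- (orange) and COX-2+/+ (green) mice for the 30 genes of the plot by array. In COX-2+/+ mice, 14 of the 15 genes that rose and 11 of the 15 that fell in COX-2+/- hippocampus have the opposite sign. None of these opposite differences was called in COX-2+/+ mice.

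Tmod3 had a region difference of -0.652 in COX-2+/-, of -0.096 in COX-2-/- and of 0.142 in COX-2+/+ mice. The difference from COX-2+/+ mice was -0.795 (SE 0.0943, adjusted p = 0.00137), and that from COX-2-/- mice was -0.557 (adjusted p = 0.00989). For Mtor the region difference was 0.472, 0.157 and -0.167 in the same order of genotypes. It differed from COX-2+/+ mice by 0.639 (SE 0.0807, adjusted p = 0.00137) and missed the threshold against COX-2-/- mice (0.315, adjusted p = 0.0526). Gcnt3 differed by 0.926 from COX-2+/+ mice (adjusted p = 0.00681), since its COX-2+/+ arrays stood at 0.341, 0.320 and 0.336 in hippocampus, against 0.6, 0.683 and 0.501 in cortex. The COX-2+/+ cortex arrays of Gcnt3 thus lay above all COX-2+/- cortex arrays, and the COX-2+/+ hippocampus arrays below all COX-2+/- hippocampus arrays.

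The COX-2-/- hippocampus arrays were themselves unlike each other in these genes. Gcnt3 stood at 0.303, 0.810 and 1.07 in COX-2-/- hippocampus, against 0.417, 0.376 and 0.347 in COX-2-/- cortex. Replicate 1 lay at the level of the cortex and the other replicates near COX-2+/- hippocampus. Replicate 1 was the lowest of the 3 COX-2-/- hippocampus arrays in all 15 genes with the largest rise, and the highest in 9 of the 15 with the largest fall. Over all tested probes its r with the other replicates was 0.986 and 0.978, and that between the others was 0.98, so it did not stand apart as a whole. Without it 128 probes in place of 160 passed between COX-2+/- and COX-2-/- mice.

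**Figure D4:**
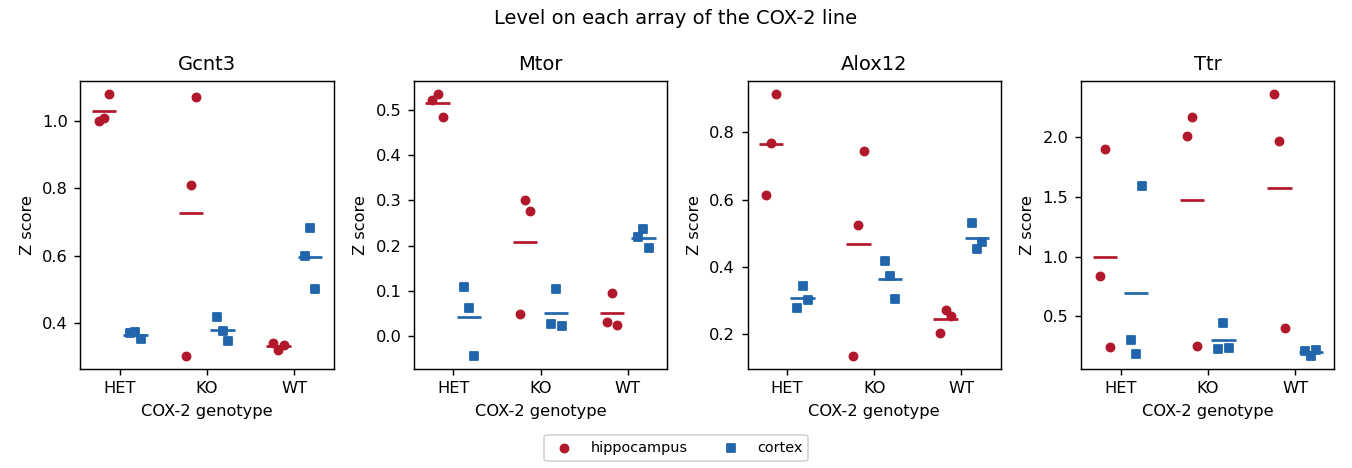
Z score (y axis) on each array of hippocampus (red circles) and cortex (blue squares) in COX-2+/- (HET), COX-2-/- (KO) and COX-2+/+ (WT) mice for Gcnt3, Mtor, Alox12 and Ttr, with lines at group means. The COX-2-/- hippocampus arrays of Gcnt3 run from 0.303 to 1.07, and 1 COX-2+/- cortex array of Ttr is at 1.59.

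Only 6 probes were called between the regions in each of the 3 genotypes, and all 6 kept 1 direction. The 4 with a gene symbol were Kif3a, Gna14 and Mtdh, lower in hippocampus, and Actb, higher in hippocampus, and this group was chosen after its values were seen. Kif3a, the motor subunit of kinesin-2, stood at 1.56, 1.41 and 1.34 in COX-2+/- hippocampus, against 1.96, 1.83 and 1.97 in COX-2+/- cortex. Its difference was -0.484 (SE 0.0737, adjusted p = 0.000828) in COX-2+/-, -0.420 in COX-2-/- and -0.389 in COX-2+/+ mice. Gna14, an alpha subunit of the Gq class of G proteins that drive phospholipase C, stood at 2.58, 2.6 and 2.53 in COX-2+/- hippocampus, against 2.97, 2.81 and 2.90 in COX-2+/- cortex. It differed by -0.325 (SE 0.0570, adjusted p = 0.00214), and by -0.359 in COX-2-/- and -0.223 in COX-2+/+ mice. None of the 3 genotypes overlapped between regions in either gene. The promoters of these 2 genes are shown because their probes fell in every genotype, and each run is the 250 bases before the annotated start on the plus strand (RefSeq, build GRCm38.p6), with a GC box in capitals.
Kif3a, chr11:53567119-53567368: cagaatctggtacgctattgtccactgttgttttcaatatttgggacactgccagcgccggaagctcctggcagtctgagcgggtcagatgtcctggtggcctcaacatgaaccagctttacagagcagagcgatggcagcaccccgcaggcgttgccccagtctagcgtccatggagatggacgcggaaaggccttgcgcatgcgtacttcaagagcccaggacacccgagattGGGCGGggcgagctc
Gna14, chr19:16435417-16435666: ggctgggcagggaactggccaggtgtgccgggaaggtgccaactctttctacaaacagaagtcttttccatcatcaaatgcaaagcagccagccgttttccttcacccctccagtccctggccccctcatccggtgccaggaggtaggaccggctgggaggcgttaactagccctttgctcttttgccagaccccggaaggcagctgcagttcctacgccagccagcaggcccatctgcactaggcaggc
The Kif3a run holds 1 GC box (GGGCGG, searched on both strands), whose first base lies 15 bases before the start, and the Gna14 run holds none. This motif was found in 32.7% of 32851 promoter runs of that length. Neither run holds a TATA box (TATAAA, in 12.4% of runs) or an E-box (CACGTG, in 6.02%), and their GC content is 58.8% in Kif3a and 60.0% in Gna14.

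Mtdh, a membrane protein of the endoplasmic reticulum also known as a metastasis gene, stood at 1.68, 1.72 and 1.79 in COX-2+/- hippocampus, against 1.93, 1.90 and 1.93 in COX-2+/- cortex. It fell by 0.193 (SE 0.0413, adjusted p = 0.00681) on this probe, but another Mtdh probe rose by 0.383 (adjusted p = 0.00918), so the direction of the gene is unsettled. Actb, cytoplasmic beta actin, stood at 0.768, 0.759 and 0.669 in COX-2+/- hippocampus, against 0.469, 0.466 and 0.413 in COX-2+/- cortex. It rose by 0.282 (SE 0.0394, adjusted p = 0.000358) in COX-2+/- mice, and the difference was 0.254 in COX-2-/- and 0.443 in COX-2+/+ mice. The 6 other tested Actb probes differed by -0.124 to 0.236 in COX-2+/- mice and did not pass. The 2 other tested Kif3a probes differed by -0.011 and -0.013 and did not pass either.

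**Figure D5:**
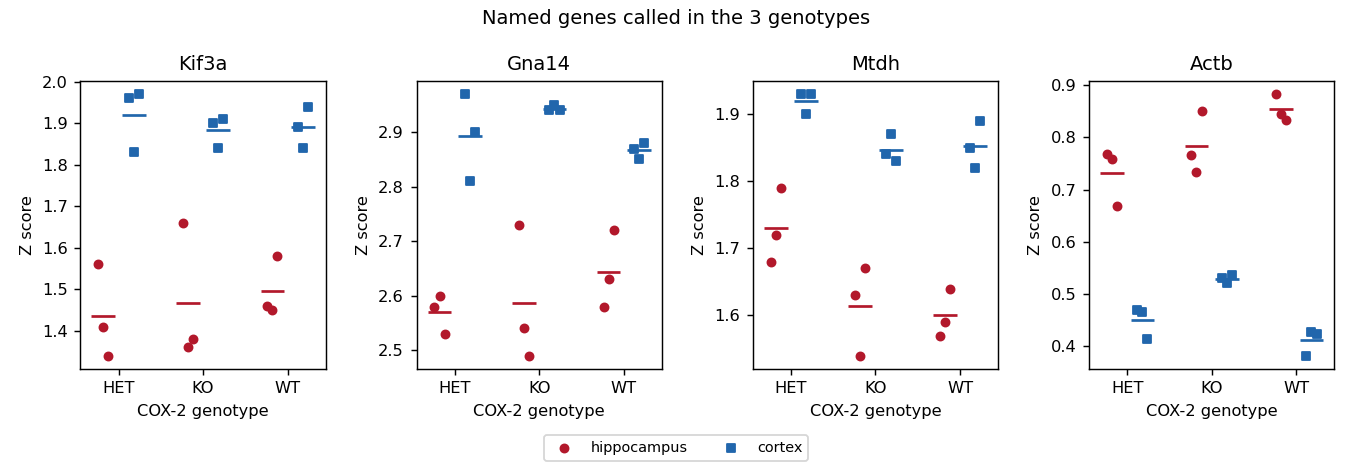
Z score (y axis) on each array of hippocampus (red circles) and cortex (blue squares) in COX-2+/- (HET), COX-2-/- (KO) and COX-2+/+ (WT) mice for the 4 named genes called in the 3 genotypes, with lines at group means. Kif3a, Gna14 and Mtdh lie lower and Actb higher in hippocampus in each genotype, and the other tested Kif3a probes differed by -0.011 and -0.013 in COX-2+/- mice.

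Some further genes were called in both COX-2+/- and COX-2+/+ mice, picked after their values were seen. Nsf, the ATPase that takes apart SNARE complexes after membrane fusion, stood at 0.747, 0.568 and 0.595 in COX-2+/- hippocampus, against 0.387, 0.382 and 0.338 in COX-2+/- cortex. It rose by 0.267 (adjusted p = 0.00344) in COX-2+/- and by 0.429 in COX-2+/+ mice, and the difference was 0.186 in COX-2-/- mice (adjusted p = 0.0947). Also higher in COX-2+/- hippocampus were Mapre1, which tracks growing microtubule ends (0.297), Ywhab, a 14-3-3 protein whose cortex mean lay below 0 (0.263), Atp1b1, a subunit of the sodium pump (0.203), and Uchl1, a neuronal ubiquitin hydrolase (0.179). Mapre1 differed between COX-2+/- and COX-2-/- mice by 0.350 (adjusted p = 0.0418). Lower were Hmox1, the inducible heme oxygenase (-0.310), and Srp68, of the signal recognition particle (-0.274). Uchl1 lost its call without cortex replicate 3. Other tested probes of Nsf (0.114), Mapre1 (-0.075), Ywhab (0.052 and 0.016), Atp1b1 (0.045) and Uchl1 (0.043) did not pass in COX-2+/- mice.

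Markers of the 2 regions were checked in the COX-2+/- arrays. Of 30 hippocampal field markers, 10 had a probe and 4 were tested, 0 called higher and 1 lower, with a median difference of 0.0642 against 0.00746 over all 3861 tested genes. The lower one was Pou3f1, a POU factor known from CA1, at 0.639, 0.579 and 0.621 in COX-2+/- hippocampus, against 0.739, 1.04 and 1.12 in COX-2+/- cortex. It fell by 0.354 (adjusted p = 0.0159), with 1 cortex array close to the hippocampus arrays, and lost its call without hippocampus replicate 2 or cortex replicate 2 or 3. Calb1, the calcium buffer of dentate granule cells, differed by 0.098 on its brightest probe (adjusted p = 0.127), where the arrays of the regions did not overlap, and rose by 0.359 on another tested probe (adjusted p = 0.00903). Tyro3, a receptor kinase enriched in CA1, differed by 0.107 (adjusted p = 0.147) and Plk5 by 0.030 (adjusted p = 0.746). Of 33 cortical layer markers, 10 had a probe and 4 were tested, with 0 called higher and 1 lower and a median of -0.0698. Ccnd2, a cyclin, fell by 0.275 (adjusted p = 0.0125) and lost its call without hippocampus replicate 1 or cortex replicate 3, and Kcnab3 (-0.103), Igfbp4 (0.114) and Pde1a (-0.037) did not pass. Few defining markers were thus tested, and markers of striatum and thalamus had 0 tested genes. The called probes of Pou3f1 and Ccnd2 both lie in the first 800 rows of a part. Among the first and last 800 rows of each part, 17.0% of tested probes were called lower, against 4.6% elsewhere. Both genes kept their calls when the running median was subtracted.

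Of 26 tested cell type marker genes, 2 were higher in COX-2+/- hippocampus and 1 was lower, against 6.48% and 6.16% of all genes. Aldoc, the brain aldolase of astrocytes, stood at 1.42, 1.67 and 1.53 in COX-2+/- hippocampus, against 1.27, 1.35 and 1.29 in COX-2+/- cortex, and rose by 0.238 (adjusted p = 0.0120). The call was lost without hippocampus replicate 2, and the 4 other astrocyte genes tested, Gja1, Glul, Slc1a3 and Sparcl1, did not pass, at -0.112 to 0.028. The microglial complement gene C1qb rose by 0.129 (adjusted p = 0.0365), a call lost when the running median was subtracted and without any 1 array except cortex replicate 1, and C1qc differed by 0.074 (adjusted p = 0.234). Slc6a13, a GABA and taurine transporter of the meninges, stood at 1.97, 1.96 and 1.85 in COX-2+/- hippocampus, against 2.16, 2.20 and 2.12 in COX-2+/- cortex. It fell by 0.238 (SE 0.0485, adjusted p = 0.00500), while the 5 other meningeal and fibroblast genes tested did not pass, at -0.164 to 0.123. The Slc6a13 probe lies in the last 800 rows of the second part. Among the first and last 800 rows of each part, 17.0% of tested probes were called lower, against 4.6% elsewhere. Its call was kept when the running median was subtracted. The choroid plexus genes Ttr and Igf2 were not called, with a median difference of 0.164. Of 3 oligodendrocyte, 3 endothelial and mural and 3 excitatory neuron genes tested, 0 were called. Interneuron markers had no probe with 1 symbol. The red cell genes Hba-a1 and Hba-a2 did not pass on their brightest probes (-0.046 and 0.051). Of their 14 tested probes, 13 had a lower hippocampus mean, with a median of -0.0948, and 3 passed, all of Hba-a1. By brightest probe, 1813 of all 3861 tested genes had a lower hippocampus mean. The 14 probes stand for only 2 genes, so they are not separate members.

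Eicosanoid genes had a median difference of 0.0767 over 13 tested genes, against 0.00746 over all genes. Alox12, the 12-lipoxygenase that also acts on arachidonic acid, stood at 0.613, 0.768 and 0.913 in COX-2+/- hippocampus, against 0.279, 0.344 and 0.302 in COX-2+/- cortex. The lowest hippocampus array was well above the highest cortex array, and Alox12 rose by 0.457 (SE 0.104, adjusted p = 0.00978), a call lost without hippocampus replicate 3. In COX-2-/- mice its difference was 0.104, and in COX-2+/+ mice it was -0.241, which differed from the COX-2+/- value by 0.698 (adjusted p = 0.0135). Ptgis, the prostacyclin synthase that acts on the product of the cyclooxygenases, stood at 1.82, 1.86 and 1.89 in COX-2+/- hippocampus, against 1.72, 1.73 and 1.71 in COX-2+/- cortex. It rose by 0.137 (SE 0.0332, adjusted p = 0.0135), a small but tight difference that did not pass after subtraction of the running median or without hippocampus replicate 3 or cortex replicate 3. The other 11 tested genes were not called. Over all 3861 tested genes, 6.48% were called higher and 6.16% lower.

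Cytoskeletal genes had 20 of 29 tested members with a lower mean in hippocampus, against 1813 of all 3861 tested genes. Their median was -0.0438, and 0 were called higher and 3 lower (10.3%, against 6.16% of all genes). These were Kif3a, Kif5b, the heavy chain of conventional kinesin, which fell by 0.251 (adjusted p = 0.00434), and Stmn1, which takes microtubules apart and fell by 0.174 (adjusted p = 0.0157). Stmn1 had nearly the same difference in COX-2-/- (-0.166) and COX-2+/+ mice (-0.166), though its call was lost without hippocampus replicate 2 or 3 or cortex replicate 1. Kif5b had the opposite sign in both, and differed by -0.358 from COX-2-/- (adjusted p = 0.0252) and by -0.320 from COX-2+/+ mice (adjusted p = 0.0171). Another tested Kif5b probe differed by -0.045 in COX-2+/- mice and did not pass. Each gene is counted by its brightest probe, which for Actb was not the called one. Over all 48 tested probes of the list the median was -0.0185, with 1 called higher and 3 lower. By brightest probe, the list had a median of 0.0119 in COX-2-/- and of 0.00192 in COX-2+/+ mice.

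Neuronal signalling genes are given list by list, beside 6.48% higher and 6.16% lower over all genes. Of 11 tested calcium signalling genes, 1 was higher and 0 lower. It was Atp2b1, the calcium pump of the plasma membrane, at 0.937, 0.904 and 0.923 in COX-2+/- hippocampus, against 0.609, 0.662 and 0.644 in COX-2+/- cortex. The arrays of each region were tight, the rise was 0.283 (SE 0.0540, adjusted p = 0.00329), and it differed from COX-2+/+ mice by 0.391 (adjusted p = 0.00913). Of 2 glutamate receptor and postsynaptic genes and 3 channel genes tested, 0 were called. Sypl, a relative of synaptophysin, fell by 0.192 (adjusted p = 0.0326) as 1 of 6 genes of vesicle release, and Ier3 fell by 0.204 (adjusted p = 0.0286) as 1 of 3 immediate early genes. Both lie in the first 800 rows and lost their calls when the running median was subtracted, Ier3 also without any 1 of the 6 arrays and Sypl without any 1 except cortex replicate 2. Stmn1 was the only 1 of 18 axon guidance and adhesion genes that was called. Wnt2 rose by 0.234 (adjusted p = 0.0432) as 1 of 14 Wnt and TGF beta genes, and its call was kept without hippocampus replicate 2 but lost without any other array and after median centring. In the list of 11 growth factors and receptors, Pdgfa rose by 0.127 (adjusted p = 0.0457) and Fgfr1 fell by 0.161 (adjusted p = 0.0136), and the Pdgfa call was lost without any 1 of the 6 arrays and after median centring, and that of Fgfr1 without cortex replicate 2.

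Of 59 tested cytosolic ribosomal proteins, 7 were higher (11.9%) and 3 lower (5.08%), with a median of 0.0161. Over all their 119 tested probes, 11 were higher and 6 lower, with a median of -0.00381. Rpl23 stood at 2.48, 2.52 and 2.56 in COX-2+/- hippocampus, against 2.30, 2.30 and 2.24 in COX-2+/- cortex, and rose by 0.236 (adjusted p = 0.00515). Rps19 rose by 0.228 (adjusted p = 0.00564), Rpl32 by 0.225 (adjusted p = 0.0111) and Rpl17 by 0.216 (adjusted p = 0.0427). Rpsa fell by 0.321 (adjusted p = 0.00310) and Rps14 by 0.197 (adjusted p = 0.0165). Rpsa lost its call when the running median was subtracted, Rpl32 and Rps14 without hippocampus replicate 3 or cortex replicate 3, and Rpl17 after median centring and without any 1 array except cortex replicate 3. Other tested probes of Rpl17 (-0.121), Rpl32 (-0.047), Rpl23 (-0.041 and 0.082) and Rps14 (0.024) did not pass. Of the other tested Rpsa probes, 1 fell by 0.134 (adjusted p = 0.0287 by limma), and those at -0.009, -0.08 and -0.05 did not pass. Ribosomal protein genes have many processed copies, so their probes may also bind transcripts of those. Of 42 tested subunits of oxidative phosphorylation, Atp5mpl and Atp5e (0.159) were higher and Cox6a1 was lower (-0.187). Cox6a1 lost its call without hippocampus replicate 2 or 3 or cortex replicate 1, and Atp5e without hippocampus replicate 1 or 2 or cortex replicate 2. Psmc1 was the only 1 of 22 proteasome genes that was called.

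Genes that the study measured by quantitative PCR were also examined. Of 5 tested by their brightest probe, Slc6a13 was lower and 0 were higher. The Slc6a13 probe lies in the last 800 rows of the second part, and lower calls were more frequent in the end rows of each part. Jak2 differed by 0.110 (adjusted p = 0.189), Jak1 by -0.024 (adjusted p = 0.769), Acly by 0.045 (adjusted p = 0.623) and Hsd17b10 by 0.080 (adjusted p = 0.312). These are kinases of cytokine receptors and enzymes of acetyl-CoA and fatty acid metabolism. Slc6a13 had the opposite sign in COX-2+/+ mice (0.099), and that difference of -0.337 passed (adjusted p = 0.0111).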

How the data were processed

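Total RNA of dissected hippocampus and cerebral cortex was labelled with radioactive dCTP during reverse transcription and hybridised to custom nylon cDNA membranes. The authors read intensities in ArrayPro and standardised their natural log on each array in an Excel macro, and these deposited Z score values were used unchanged. The first and the last 8448 probes were each scaled separately to mean 0 and SD 1, and array medians lie between -0.0627 and -0.0475. Probe symbols came from the platform annotation, 1 symbol for 9663 probes, several for 436 and none for 6797.

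A limma model of 6 group means (lmFit and eBayes, 12 residual and 4.5 prior degrees of freedom) was fitted to the 18 arrays of the COX-2 line, with Benjamini-Hochberg adjustment over the probes whose mean Z over the 6 heterozygous arrays was above 0. The z ratio rule was run with that filter, a Z test P under 0.05 and a difference beyond 1.5 SD of all differences (SD 0.148). The methods word the ratio over the SD of an array, which was run as an alternative. With 3 arrays against 3 no exact permutation test gives a p below 0.1. The script was tested on simulated data. No sequencing depth applies, and the number of arrays limits the precision.

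Genes named are the 15 largest differences without overlap in each direction, up to 5 with the smallest p in each direction and in each contrast between genotypes, called members of the lists, up to 6 per list, and all marker genes tested. A few are named outside the rule, as said beside them. A gene is counted by its brightest tested probe. The members and lists were chosen with earlier results of these data known. The COX-1 arrays were left out of the model, since 5 of the COX-1 cortex arrays hold the same values in the first 8448 rows. Alternatives were other centring, quantile normalization, subtraction of a running median in table order, other filters, thresholds and sets of arrays, an intensity trend, robust moderation, a replicate block and leaving out each array in turn. Omitting the first and last 800 rows of each part, or COX-2-/- hippocampus replicate 1, was added after seeing the data. R 4.3.3, limma 3.58.1, the R package data.table (version 1.17.8), Python 3.11.15, pandas 2.3.3, numpy 2.4.6 and matplotlib 3.10.9 were used.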

Additional observations from a re-analysis of the deposited data

Results flagged for a closer look

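The difference between hippocampus and cortex in COX-2+/- mice differed by a test of the difference itself from that in COX-2+/+ mice at 343 probes and from that in COX-2-/- mice at 160 probes (limma, adjusted p under 0.05). The values that follow are the COX-2+/- region difference in Z minus that of the other genotype, for the genes chosen by the naming rule. Many of these were chosen for their difference in COX-2+/- mice, so a pass follows in part from the choice. Ppp4r2 and Prrg4 passed the filter on mean Z only through their COX-2+/- hippocampus arrays, so a difference was built into them.

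Against COX-2+/+ mice the difference was more positive for Gcnt3 (0.93), Dbpht2 (0.91), Ppp4r2 (0.90), Prrg4 (0.82), Usp29 (0.77), Mrpl23 (0.74), Praf2 (0.73), Plxdc2 (0.72), Snf8 (0.71), Alox12 (0.70), Wnk1 (0.68), Ctdspl (0.68), Mtor (0.64), Ctnnd1 (0.63), Atp5mpl (0.59), Map4k5 (0.50), Psmc1 (0.49), Caskin2 (0.45), Rpl17 (0.40), Atp2b1 (0.39), H2-T10 (0.35), Rpl32 (0.30) and Ptgis (0.19). It was more negative for Tmod3 (-0.79), Rbm27 (-0.65), Tdrd9 (-0.64), Crybg3 (-0.64), Agpat1 (-0.60), Dcakd (-0.56), Tiparp (-0.55), Pdlim5 (-0.55), Rpsa (-0.50), Senp6 (-0.50), Rbm28 (-0.46), Sfxn2 (-0.45), Slc6a13 (-0.34), Rps14 (-0.33), Kif5b (-0.32), Eif4a1 (-0.30) and Cox6a1 (-0.26).

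Against COX-2-/- mice it was more positive for Usp29 (0.61), Caskin2 (0.58), Wnt2 (0.45), Map4k5 (0.43), Ctnnd1 (0.42), Psmc1 (0.35) and Ptgis (0.21). It was more negative for Agpat1 (-0.68), Sfxn2 (-0.63), Tmod3 (-0.56), Tdrd9 (-0.54), Rbm27 (-0.52), Dcakd (-0.51), Senp6 (-0.50), Asap2 (-0.43), Ccdc50 (-0.39), Kif5b (-0.36), Pdlim5 (-0.36), Slc34a2 (-0.34), Eif4a1 (-0.31) and Rps14 (-0.29).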

How the results depend on the processing

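No called difference of a named gene changed sign under the alternatives run, while differences that did not pass could, as for Gja1 (0.004, and -0.018 after quantile normalization) and Ttr (0.303, and -0.152 without hippocampus replicate 2). The 554 higher and 509 lower probes became 492 and 565 after median centring and 462 and 579 after quantile normalization, so the larger side turned. Among 73 called probes of named genes, 66 stayed called after subtraction of the running median, 70 after median centring, 70 after quantile normalization and 67 with the 6 heterozygous arrays alone. At an adjusted p under 0.01, 172 probes were higher and 188 lower, and 92 and 17 differed from COX-2+/+ and COX-2-/- mice. Without the filter on mean Z these were 959, 1235, 541 and 630. With a mean Z above 0.5, 348 were higher and 87 differed from COX-2-/- mice. The count that differed from COX-2-/- mice was also 97 after subtraction of the running median and 347 with an intensity trend. It was 275 with the parts of the table adjusted separately. With all 30 arrays it was 331, but 5 COX-1 cortex arrays in that fit hold the same values in the first 8448 rows. Lower probes numbered 311 without the first and last 800 rows of each part. The z ratio rule gave 236 at a z ratio beyond 2, 1425 without its filter and 0 when the difference was not divided by the SD of differences, where 2324 of the 8008 probes had an unadjusted p under 0.05 by limma and 1063 an adjusted p under 0.05.

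Leaving out 1 of the 6 arrays gave 252 to 372 higher and 259 to 450 lower probes, 161 to 239 that differed from COX-2+/+ mice, 18 to 142 that differed from COX-2-/- mice and 423 to 567 by the z ratio rule. The difference from COX-2+/+ mice was met by 223, 208 or 161 probes without hippocampus replicate 1, 2 or 3 and by 224 or 207 without cortex replicate 2 or 3, and that from COX-2-/- mice by 55, 33 or 36 and by 58 or 18. Fewer arrays enter each of these fits.

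The labels number the replicates but nothing ties a number to an animal. Same-numbered hippocampus and cortex arrays deviated from their group means with r = 0.107, -0.0195 and 0.0015 across probes, and hippocampus replicate 2 correlated best with cortex replicate 3 (r = 0.0914), so the numbers were not taken to pair the arrays. With the replicate block 460 probes were higher and 427 lower, 175 differed from COX-2+/+ mice and 16 from COX-2-/- mice, and 67 of the 73 named calls stayed. Signal over background limits the rest, since 8888 probes had a mean Z at or below 0 and were not tested.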

Other observations

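Protein families grouped by their symbols, after the data were seen, are given here by their called members in COX-2+/- mice, beside 6.48% higher and 6.16% lower over all genes. Of 56 tested solute carriers 5 were higher in hippocampus and 4 lower. The higher ones were Slc15a2, a peptide carrier, Slc22a7, Slc25a13, the aspartate and glutamate carrier of mitochondria, Slc38a10 and Slc44a2. The lower ones were Slc27a4, Slc34a2, Slc35b1 and Slc6a13. Of 25 mitochondrial ribosomal proteins, Mrpl23, Mrpl27 and Mrpl45 were higher and Mrpl44 was lower. Of 48 zinc finger genes of the Zfp series, 4 were higher and 1 lower.

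Of 29 tested chaperone genes, 1 was higher and 1 lower (3.45% each), below the 6.48% and 6.16% of all genes. The lower one was Hspd1, the mitochondrial chaperonin, and the higher one was Hspe1, its partner. Ube2e1, Ube2g1 and Usp29 were higher (8.82%) and Ube2j1 and Usp15 lower (5.88%), out of 34 ubiquitin-conjugating enzymes and specific proteases. Of 10 kinesins, Kif22 was higher and Kif3a and Kif5b were lower. Of 17 SR proteins, hnRNPs and SF3 splicing factors 0 were called by their brightest probe, though 4 of their 24 tested probes were higher. Of 14 Rab GTPases, Rab11a of recycling endosomes fell by 0.171 (adjusted p = 0.0137 by limma), a call lost without hippocampus replicate 2 or cortex replicate 2.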
